A study of Mus musculus with 18 samples.

Results

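The genes described here are 50 genes of the non-collagen extracellular matrix, chosen by symbol from a deposited count table of 25731 gene symbols. All 50 were in the table, and all 50 passed the filter on low counts, which left 15088 genes for testing. By the role of their proteins they fell into 19 matricellular and adhesive glycoproteins, 13 components of elastic fibres and microfibrils, 7 small leucine-rich proteoglycans, 8 basement membrane components and 3 other matrix adaptors (Aebp1, Ecm1 and Matn2). Membership was set by symbol, with no threshold on a measured value. The list was chosen with earlier results of these data known, so counts of its genes beside all genes are not independent support.

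Total RNA of 18 mouse hearts was sequenced at day 7 after surgery, 1 library per animal. All animals were wild-type adult C57BL/6 mice labelled as male, in 3 groups of 6: sham surgery (SHAM), ischemia-reperfusion (IR), in which blood flow to heart muscle is interrupted and restored, and ischemia-reperfusion with decursin (IR+Decursin). Decursin is a coumarin derivative found in the root of Angelica gigas, and the study asked which expression changes accompany its use after such an injury. How much decursin was given, how and when, how long the ischemia lasted and which part of the heart was sampled are details that the labels do not state. No group received decursin without ischemia-reperfusion.

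Matricellular proteins such as periostin, tenascin-C and the thrombospondins are secreted into the matrix and act mainly on cell adhesion, migration and growth factor signalling instead of bearing load. Elastic fibres consist of elastin laid on microfibrils of fibrillins, with fibulins and associated glycoproteins joining them, and small leucine-rich proteoglycans such as decorin bind collagen fibrils and tune their width. Basement membranes of laminins, nidogens and perlecan surround every cardiomyocyte and capillary. In the injured heart, fibroblasts are the main producers of newly laid matrix, with contributions from other cell types.

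Libraries held 27.53 to 34.97 M counts. Levels below are counts scaled to a library of 1000000 with TMM factors (CPM) unless a sentence says FPKM. Each change is a log2 fold change with an approximate standard error (SE) after ±, derived from the test statistic. Adjusted p-values come from edgeR's quasi-likelihood test with Benjamini-Hochberg adjustment over all 15088 genes, called at 0.05. In IR 3, IR 4 and IR+Decursin 2 the female-specific transcript Xist had 14232, 14072 and 14219 counts and the Y-linked gene Ddx3y had 0, against the label of these libraries. The gene model Gm26917 took 7.54% of the counts of IR+Decursin 6 and 0.915% of those of IR 1. The 3 batches named in the labels each hold a single group, so batch and group cannot be told apart. The sampled tissue carried the 10 cardiomyocyte markers at a summed 33420 to 75500 CPM, and the lung epithelium markers in the table summed to at most 0.0691 CPM.

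Most of the matrix genes were higher in IR than in SHAM hearts. Of the 50, 35 rose and 1, the proteoglycan gene Prelp, fell. Over all genes tested, 25.3% rose and 21.7% fell. The median change was 0.90 on the log2 scale for the 50 genes, beside -0.0018 for all genes tested. For 29 of the 50 every IR library lay above every SHAM library, as did 15.4% of all genes, and for 0 of the 50 did every IR library lie below, as did 11.6% of all genes. At an unadjusted p under 0.05 by edgeR, 37 of the 50 differed, beside 53.7% of all genes. The 50 genes together took 0.406 ± 0.0259% of counts in SHAM (SD, n = 6) and 1.05 ± 0.279% in IR, with no overlap (at most 0.445% and at least 0.813%). DESeq2 called 35 of the 50 higher and 1 lower, with 10, 13, 4, 5 and 3 higher in the groups below in their order. Without the 3 libraries with high Xist counts, 35 were called higher and 1 lower. Without TMM factors the median of all genes tested moves up by 0.31, so differences of that size are not separable from the choice of scaling.

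**Figure D1:**
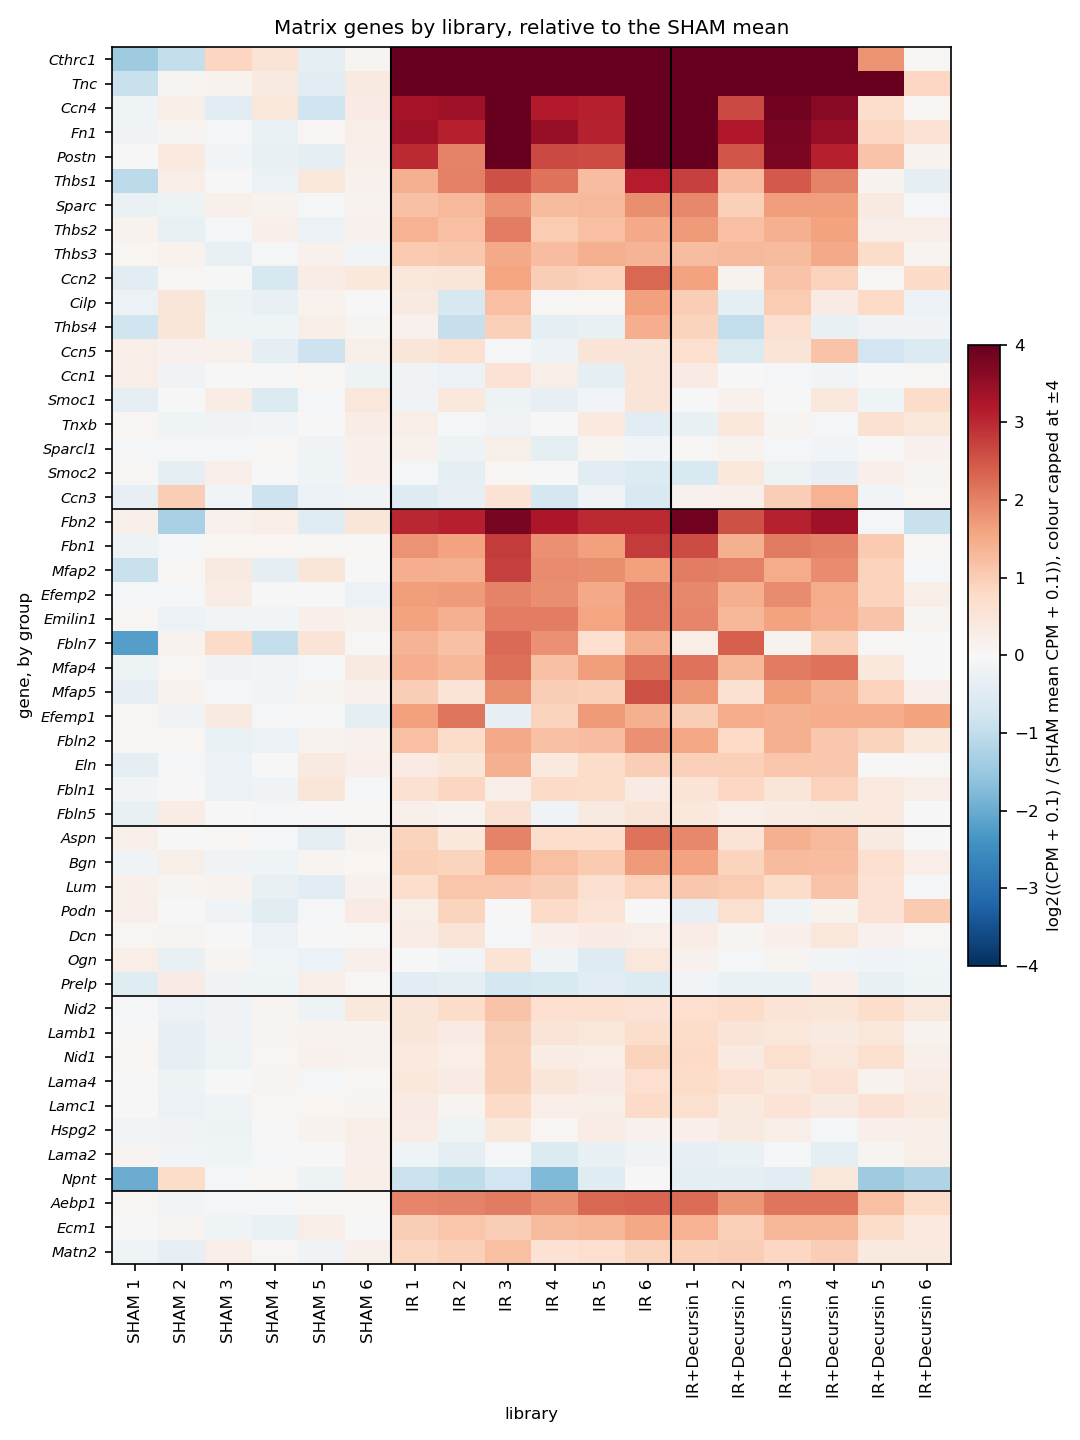
Level of each of the 50 genes (rows, grouped by role and ordered by IR against SHAM change) in each of the 18 libraries (columns), as log2 of the ratio to the SHAM mean with 0.1 CPM added to both, colour limited at ±4. The upper rows of each block are red in all IR libraries, and IR+Decursin 5 and IR+Decursin 6 are paler than the other 4 libraries of their group.

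Among the matricellular and adhesive genes, 10 of 19 rose and 0 fell by edgeR, beside 25.3% and 21.7% of all genes tested. Their median change was 1.28. At an unadjusted p under 0.05 by edgeR stood the same 10 of 19, which is near the 53.7% of all genes. Fn1, which encodes fibronectin, had 55.2, 66.3 and 80.2 CPM as the lowest, median and highest SHAM value, and 560, 724 and 1462 CPM in IR. The groups did not overlap, and the 2 highest IR libraries were IR 6 and IR 3. The change was 3.77 ± 0.55 (13.6-fold, adjusted p = 4.98e-05). Tnc encodes tenascin-C, a hexameric glycoprotein of provisional matrix that adult tissue holds at low amounts. It went from 0.972, 2.09 and 2.45 CPM in SHAM to 59.0, 144 and 457 CPM in IR, again with no overlap (6.90 ± 0.96, adjusted p = 3.86e-05). The lowest IR value of Tnc, in IR 2, was far above the highest SHAM value, and the IR libraries themselves differed by the ratio of 457 to 59.0.

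Thbs3 had the smallest adjusted p of the matricellular genes (1.43e-05), with 5.90, 7.33 and 8.31 CPM in SHAM and 15.3, 17.9 and 21.1 CPM in IR. Its change was 1.30 ± 0.18, the groups did not overlap, and its IR libraries lay close together. The other thrombospondin genes did not follow one pattern. Thbs1 (2.24 ± 0.50) and Thbs2 (1.44 ± 0.25) rose, each with 6 of 6 IR libraries above every SHAM library. Thbs4, which encodes a pentameric thrombospondin, had a difference of 0.40 ± 0.39 that was not called (adjusted p = 0.421), and its IR libraries ran from 10.3 CPM in IR 2 to 54.7 CPM in IR 6, on both sides of the SHAM range of 11.3 to 27.5.

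Postn, which encodes periostin and is widely used as a marker of activated fibroblasts, had 68.3, 84.1 and 116 CPM in SHAM and 345, 619 and 1981 CPM in IR (3.52 ± 0.63, adjusted p = 0.000268). Cthrc1, a secreted protein with a short collagen-like repeat, had at most 0.767 CPM in SHAM and 29.6, 35.1 and 88.1 CPM in IR (7.09 ± 1.11, adjusted p = 0.000103). Both genes were highest in IR 3, and their SHAM and IR ranges did not overlap. Sparc, a collagen-binding protein, rose by 1.48 ± 0.27 with 1002 CPM as its lowest IR value and 504 CPM as its highest SHAM value.

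The CCN genes, which encode modular matrix-associated signalling proteins, split. Ccn4 rose from at most 1.69 CPM in SHAM to at least 11.1 CPM in IR (3.87 ± 0.66, adjusted p = 0.0002). Ccn2, also known as connective tissue growth factor, rose by 1.28 ± 0.34 (adjusted p = 0.00498), but its lowest IR value of 84.5 CPM was next to its highest SHAM value of 83.6 CPM. Ccn1 (0.15 ± 0.14), Ccn5 (0.35 ± 0.31) and Ccn3 (-0.23 ± 0.32) did not pass the test. With total-count scaling Ccn1 was called higher (0.46, adjusted p = 0.0193) and the value of Ccn3 was above 0 (0.10).

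The remaining matricellular genes without a call were Cilp (0.65 ± 0.34), Smoc1 (0.07 ± 0.20), Tnxb (0.02 ± 0.15), Sparcl1 (-0.01 ± 0.10) and Smoc2 (-0.21 ± 0.16). Cilp, cartilage intermediate layer protein, was called when IR 2, its lowest IR library, was left out (0.81, adjusted p = 0.0495) and with total-count scaling (0.96, adjusted p = 0.0325), as was Tnxb with that scaling (0.33, adjusted p = 0.0471). Sparcl1, a relative of Sparc that is abundant in the healthy heart, had 368, 393 and 466 CPM in SHAM and 312, 402 and 480 CPM in IR, so its IR values lay on both sides of the SHAM range. It was called higher with total-count scaling (0.29, adjusted p = 0.0142) and on log2(FPKM + 1) (0.28, adjusted p = 0.0156).

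All 13 elastic fibre and microfibril genes rose, beside 25.3% of all genes tested, with a median change of 1.72. Efemp2 encodes fibulin-4, which is needed for elastic fibre assembly and for the activity of lysyl oxidase. It had 7.67, 8.83 and 11.1 CPM in SHAM and 25.9, 31.3 and 38.4 CPM in IR, with no overlap (1.83 ± 0.22, adjusted p = 6.86e-06). Emilin1, an elastin interface protein, had 24.7, 28.5 and 33.7 CPM in SHAM and 78.2, 105 and 121 CPM in IR. Its change of 1.82 ± 0.22 (adjusted p = 7.57e-06) was close in size to that of Efemp2. Fbln2, fibulin-2, went from 95.4, 120 and 129 CPM to 189, 264 and 409 CPM, highest in IR 6 (1.32 ± 0.18, adjusted p = 1.88e-05).

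The fibrillins form the microfibril core. Fbn1 had 60.8, 72.1 and 74.1 CPM in SHAM and 214, 245 and 487 CPM in IR (2.18 ± 0.34, adjusted p = 8.46e-05). Its IR libraries formed a lower set of 4 and a higher pair, IR 3 and IR 6. Fbn2, the fibrillin best known from fetal tissue, stayed at a far lower per-length level (0.0489 FPKM in SHAM and 0.649 FPKM in IR) and rose by 3.41 ± 0.64 (adjusted p = 0.000367). Eln, the elastin gene, rose by 0.79 ± 0.22 (adjusted p = 0.00778), with the lowest IR library, IR 1 at 34.9 CPM, under the highest SHAM library at 35.7 CPM. The microfibril-associated genes Mfap2 (1.97 ± 0.34), Mfap4 (1.72 ± 0.33) and Mfap5 (1.49 ± 0.33) each had 6 of 6 IR libraries above SHAM.

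Efemp1, fibulin-3, rose by 1.44 ± 0.28 (adjusted p = 0.000391), but not in every library. It had 5.33, 6.68 and 8.80 CPM in SHAM and 19.9 CPM as the median of IR, while IR 3 had 5.39 CPM, inside the SHAM range, although IR 3 was the highest IR library for 24 of the 50 genes. Fbln7 had under 1 CPM in SHAM and 0.638 to 2.09 CPM in IR (1.77 ± 0.57, adjusted p = 0.0156). Fbln1 rose by 0.61 ± 0.14 (adjusted p = 0.00129). Fbln5, fibulin-5, rose by 0.30 ± 0.11 (adjusted p = 0.0361). This call was lost when any one of SHAM 1, 3, 4, 5 or 6 or of IR 1, 3, 5 or 6 was left out (adjusted p = 0.0506 to 0.105).

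**Figure D2:**
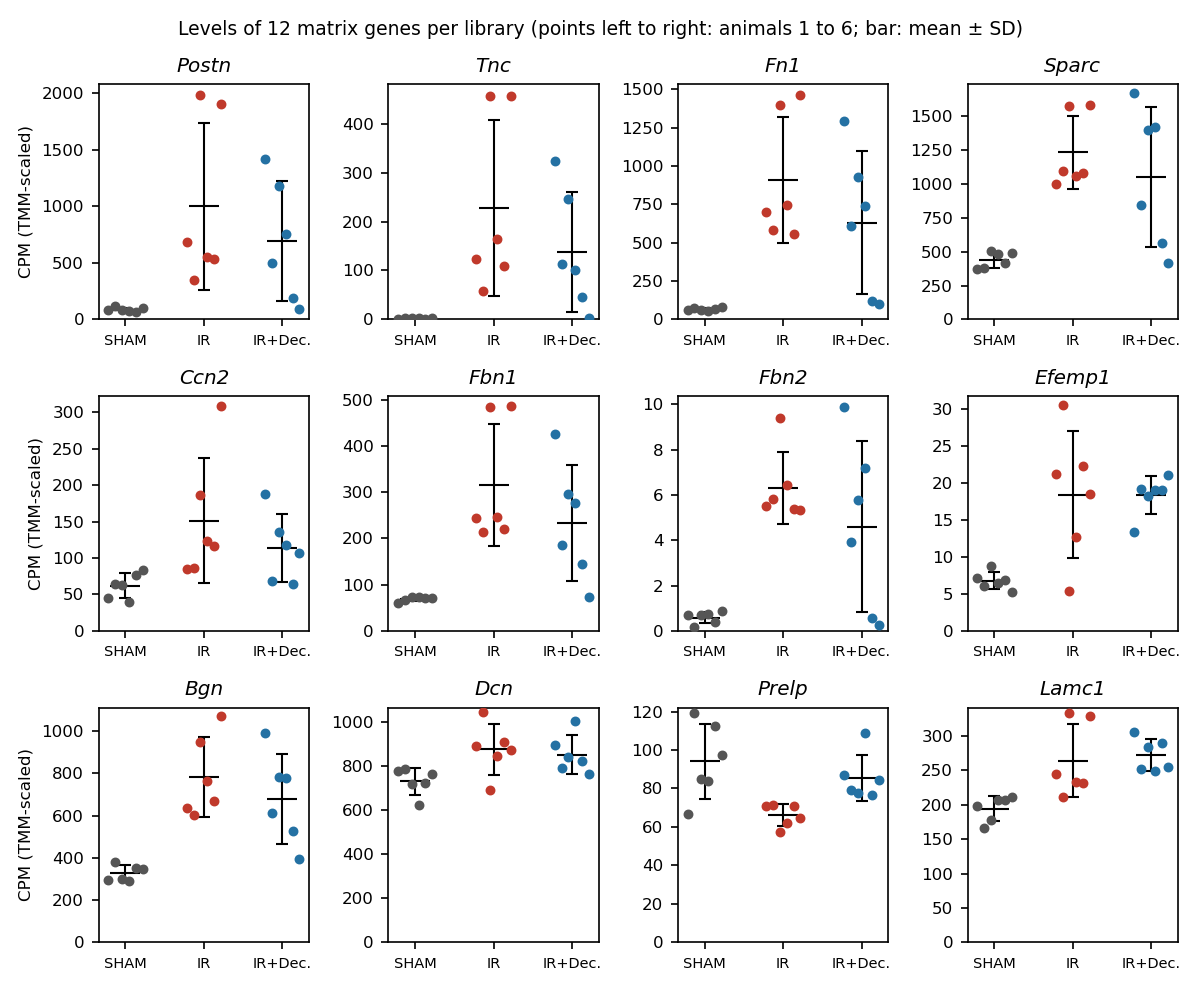
CPM with TMM factors (vertical axis, from 0) of 12 of the genes in each library, points from left to right being animals 1 to 6 of a group and bars the mean ± SD of 6. Postn, Tnc, Fn1 and Fbn1 show a high pair in IR (IR 3 and IR 6), and in Prelp every IR+Decursin point lies above every IR point.

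Of the 7 small leucine-rich proteoglycans, 4 rose and 1 fell, beside 25.3% and 21.7% of all genes tested, with a median change of 0.45. Bgn, biglycan, had 291, 324 and 381 CPM in SHAM and 604, 716 and 1072 CPM in IR, with no overlap (1.26 ± 0.19, adjusted p = 2.85e-05). Lum, lumican, had 71.9, 109 and 114 CPM in SHAM and 155, 192 and 215 CPM in IR (0.92 ± 0.17, adjusted p = 0.00025). Aspn, asporin, rose by 1.32 ± 0.35 (adjusted p = 0.00544), from at most 44.0 CPM in SHAM to 50.7 CPM in IR 2 and 173 CPM in IR 6. Dcn, decorin, the most abundant of the 50 per length in SHAM, rose by 0.26 ± 0.10 (adjusted p = 0.0356). The Dcn call was lost without SHAM 3, 4 or 5 or without IR 1, 2, 5 or 6 (adjusted p = 0.0530 to 0.103), and its IR 3 value of 690 CPM was inside the SHAM range of 621 to 787 CPM.

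Prelp encodes a leucine-rich protein that anchors basement membranes to connective tissue. It was the member that fell, with 66.6, 91.3 and 119 CPM in SHAM and 57.2, 67.8 and 71.3 CPM in IR (-0.51 ± 0.12, adjusted p = 0.00161). The ranges overlapped through SHAM 1, and 3 of 6 IR libraries lay under every SHAM library. The fall was not called with total-count scaling (-0.20, adjusted p = 0.205) or on log2(FPKM + 1) (-0.17, adjusted p = 0.283). Ogn, osteoglycin (0.09 ± 0.15), and Podn, podocan (0.45 ± 0.22, adjusted p = 0.101), did not pass the test. Both were called higher with total-count scaling (0.40, adjusted p = 0.0429, for Ogn and 0.78, adjusted p = 0.00345, for Podn). Podn was called under 5 of 24 alternatives, among them the fit of the 2 groups only (0.46, adjusted p = 0.0401) and log2(FPKM + 1) (0.59, adjusted p = 0.00636).

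Of the 8 basement membrane genes, 5 rose and 0 fell, beside 25.3% and 21.7% of all genes tested, with a median change of 0.49. At an unadjusted p under 0.05 by edgeR stood 6 of the 8, beside 53.7% of all genes. Nid2, nidogen-2, which links laminin to the collagen IV network, had 19.2, 21.3 and 30.2 CPM in SHAM and 31.4, 35.6 and 49.7 CPM in IR (0.72 ± 0.11, adjusted p = 4.98e-05). Lamb1, the laminin β1 chain, had 77.0, 99.9 and 107 CPM in SHAM and 121, 135 and 189 CPM in IR (0.59 ± 0.11, adjusted p = 0.000258). Lama4, the laminin α4 chain of blood vessels and cardiomyocytes, had 75.9, 89.2 and 95.4 CPM in SHAM and 110, 120 and 169 CPM in IR (0.54 ± 0.11, adjusted p = 0.000427). In these 3 genes and in Nid1 (0.55 ± 0.14) and Lamc1 (0.44 ± 0.11), every IR library was above every SHAM library.

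Lama2, the laminin α2 chain that ties the cardiomyocyte membrane to its basement membrane, went the other way and did not pass the test (-0.25 ± 0.11, adjusted p = 0.0599). It was called lower without SHAM 3, IR 1 or IR 3 (adjusted p = 0.0402 to 0.0447), with only the 2 groups fitted (adjusted p = 0.0281) and with voom quality weights (adjusted p = 0.0278), and its value was above 0 with total-count scaling (0.05). The perlecan gene Hspg2 was 0.19 ± 0.10 higher (adjusted p = 0.135), and was called without IR 2 (0.26, adjusted p = 0.0406) and with total-count scaling (0.50, adjusted p = 0.000834). Npnt, nephronectin, an integrin ligand, was low throughout, at 1.83 ± 0.883 CPM in SHAM and 1.07 ± 0.459 CPM in IR (SD, n = 6). Its difference of -0.77 ± 0.40 did not pass (adjusted p = 0.119) but was called without SHAM 1, its lowest SHAM library (-0.98, adjusted p = 0.0288).

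All 3 adaptor genes rose, beside 25.3% of all genes tested. Aebp1 encodes a secreted collagen-binding carboxypeptidase-like protein and had the smallest adjusted p of the 50 genes (2.66e-06). It had 18.8, 20.6 and 21.7 CPM in SHAM and 75.5, 84.0 and 104 CPM in IR, a change of 2.10 ± 0.20. Ecm1 had 29.5, 35.3 and 42.0 CPM in SHAM and 69.5, 80.7 and 103 CPM in IR (1.22 ± 0.15, adjusted p = 7.61e-06). Matn2, matrilin-2, had 18.1, 21.9 and 27.2 CPM in SHAM and 34.0, 41.2 and 52.3 CPM in IR (0.88 ± 0.13, adjusted p = 2.89e-05). None of the 3 overlapped between the groups.

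Markers of cell types moved between the same groups. The 6 activated fibroblast markers outside the 50 genes summed to 283 to 365 CPM in SHAM and 2256 to 3324 CPM in IR. Such a sum is weighted to the abundant markers. Of all 10 listed activated fibroblast markers, which include Postn, Tnc, Cthrc1 and Ccn4, 9 were called higher, beside 25.3% of all genes. Their changes ran from 0.16 to 7.09 on the log2 scale. The 9 resident fibroblast markers outside the 50 summed to 1451 to 1894 CPM in SHAM and 1122 to 1464 CPM in IR. Most of that sum was Gsn, gelsolin, which fell from a mean of 1249 CPM to 790 CPM (-0.66 ± 0.16, adjusted p = 0.0021). Of all 10 listed resident fibroblast markers, which include Lamb1, 6 were called higher and 1, Gsn, lower, with a median log2 difference of 0.52. The resident list shares Meox1 with the activated list and Pdgfra with the growth factor list used below. The 10 cardiomyocyte markers fell from 64210 to 75500 CPM in SHAM to 33420 to 49120 CPM in IR, and the 10 macrophage markers went from 275 to 388 CPM to 821 to 1449 CPM. No defining marker of these lists was at 0. Their part in the matrix changes was not tested. In RNA of a whole tissue, more cells of a type and more RNA per cell cannot be told apart.

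Per length of transcript, the order of the 50 genes was altered by the change. In SHAM hearts Dcn led with 307 ± 18.1 FPKM (SD, n = 6), followed by Sparc (148 ± 23.5), Bgn (117 ± 13.2), Sparcl1 (97.4 ± 8.89) and Ogn (51.3 ± 7.72). In IR hearts Sparc led with 513 ± 116 FPKM, followed by Dcn (456 ± 64.1), Bgn (345.5 ± 86.0), Postn (321 ± 238) and Sparcl1 (119 ± 16.7). Sparc and Dcn in IR, and Bgn and Postn in IR, lay within each other's spread. Postn moved from rank 12 to rank 4, Fn1 from rank 27 to rank 6 and Tnc from rank 47 to rank 21. Hspg2 went from rank 7 to rank 17 and Smoc2 from rank 8 to rank 23, with mean levels of 29.3 and 41.3 FPKM for Hspg2 and 25.7 and 27.6 FPKM for Smoc2.

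**Figure D3:**
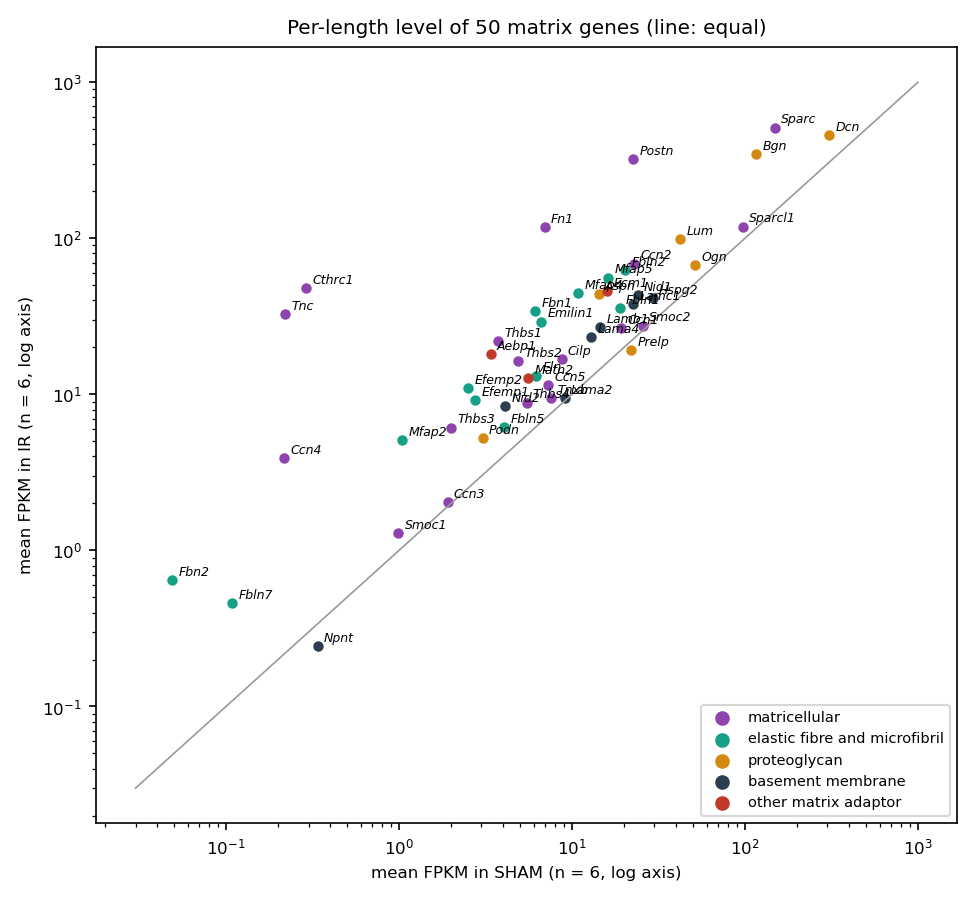
Mean deposited FPKM of the 50 genes in SHAM (horizontal, log axis) and IR (vertical, log axis), 6 libraries each, coloured by role, with a line of equal level. Tnc, Cthrc1, Postn, Fn1, Ccn4 and Fbn2 stand farthest above the line, while Prelp and Npnt lie under it.

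Related genes were then compared within each library as log2 ratios of counts, which need no scaling factor. Over 12 pairs and 3 comparisons, 36 two-sided exact permutation tests were made, each over all splits of 6 against 6 with a smallest possible p of 0.0022, and adjusted together. The pairs were chosen with earlier results of these data known, so their p-values describe chosen pairs and are not independent support. In IR against SHAM the ratio was called different for 7 of 12 pairs. The Tnc/Tnxb ratio went from -5.98 ± 0.580 to 0.585 ± 1.40 (SD, n = 6; exact p = 0.0022, adjusted p = 0.0111). Tnc had fewer counts than Tnxb in every SHAM library. In IR it had fewer in 3 of 6 libraries, the lowest ratio being -0.931 in IR 2, and the highest ratios were 2.13 in IR 3 and 2.43 in IR 6. Bgn/Dcn rose by 0.98, Sparc/Sparcl1 by 1.49, Thbs1/Thbs4 by 1.96 and Aspn/Ogn by 1.11, while Lama2/Lama4 fell by 0.79 on the log2 scale. In these 6 pairs the SHAM and IR ratios did not overlap, and each had an exact p of 0.0022 and an adjusted p of 0.0111.

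Without the libraries with high Xist counts 6 pairs were called. Fbn2/Fbn1 rose by 1.41 (exact p = 0.0065, adjusted p = 0.0234), with IR 6 inside the SHAM range. Without the libraries with high Xist counts this pair had an exact permutation adjusted p of 0.0623. Fbln2/Fbln1 was 0.68 higher and did not pass (exact p = 0.0216, adjusted p = 0.0599), but passed without IR 2 (0.85, adjusted p = 0.0097). Mfap5/Mfap4 was not called with all libraries (difference -0.36, adjusted p = 0.173) and was called without IR 6 (-0.51, adjusted p = 0.0142). For Ccn2/Ccn5, Smoc2/Smoc1 and Nid2/Nid1 the differences were 0.80, -0.29 and 0.19, with adjusted p-values of 0.173, 0.434 and 0.404 from the exact permutation test.

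**Figure D4:**
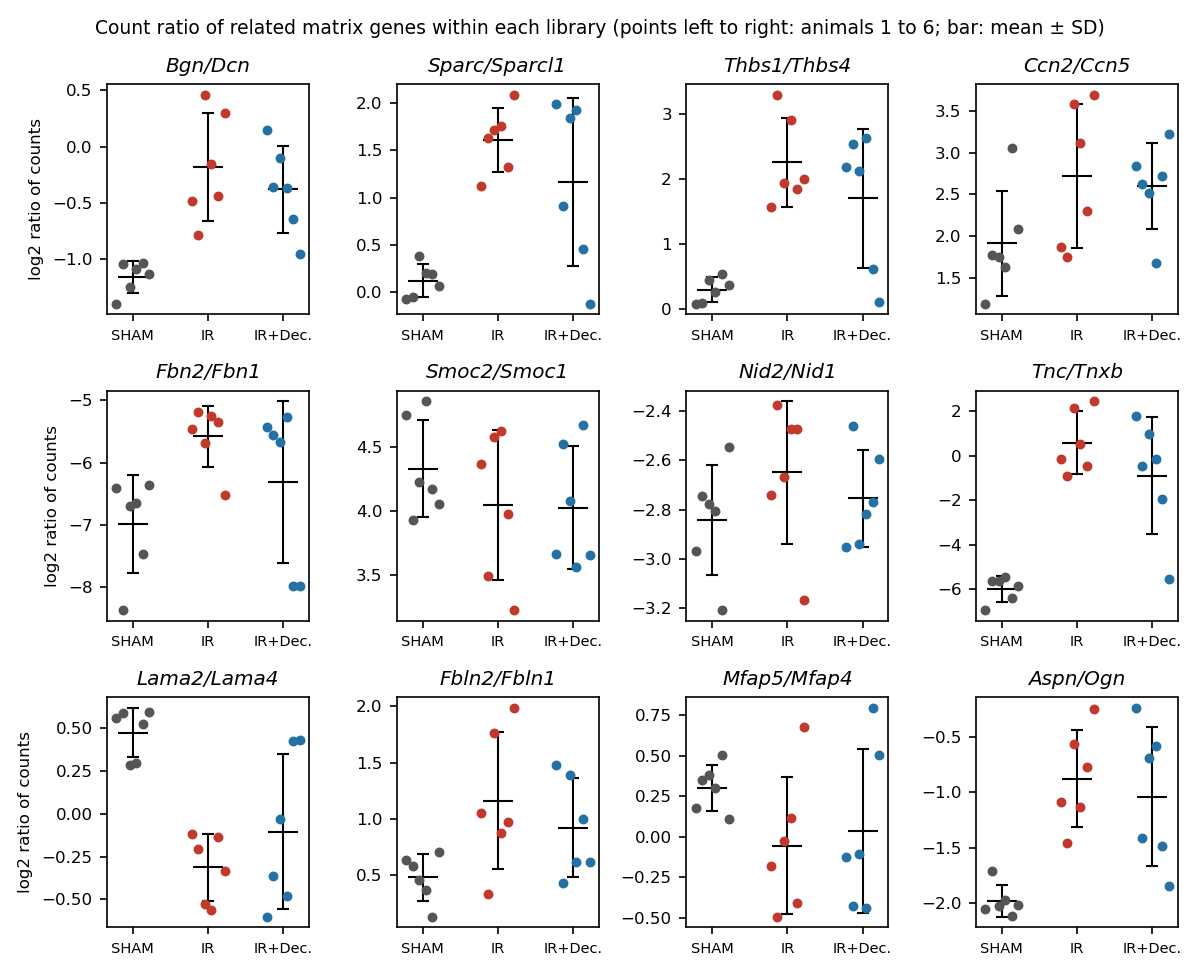
Log2 ratio of the counts of 2 related genes in each library (vertical axis, a different range in each panel), points from left to right being animals 1 to 6 and bars the mean ± SD of 6. The Lama2/Lama4 ratio is lower in all IR than in all SHAM libraries, whereas the other 6 called pairs are higher, and in IR+Decursin 6 the Tnc/Tnxb ratio is -5.54, near the SHAM values.

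Promoter sequence is shown for 5 genes, to set members of these pairs side by side: Postn and Tnc, which rose 11.5-fold and 120-fold, Tnxb, which did not pass the test, and the neighbours Aspn and Ogn, of which the first rose. The RefSeq promoter table, on the build GRCm38.p6 and not the GRCm39 build of the counts, held 30 of the 50 genes with 39 windows. Each sequence is the 250 bases before a listed transcript start, 5′ to 3′ on the strand of the gene, in lower case with motif matches in capitals. The motifs searched on both strands were TATAAA (the TATA box), GGAATG (the site of TEAD factors), TGANTCA (the site of AP-1) and the CArG box of serum response factor. Overlapping matches are merged in capitals.
Postn, chr3:54360857-54361106, plus strand: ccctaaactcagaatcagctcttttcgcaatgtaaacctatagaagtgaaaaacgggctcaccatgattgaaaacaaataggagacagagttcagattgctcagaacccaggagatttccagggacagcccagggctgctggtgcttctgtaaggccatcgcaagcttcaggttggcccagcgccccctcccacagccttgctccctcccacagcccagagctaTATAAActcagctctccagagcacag
Tnc, chr4:64047016-64047265, minus strand: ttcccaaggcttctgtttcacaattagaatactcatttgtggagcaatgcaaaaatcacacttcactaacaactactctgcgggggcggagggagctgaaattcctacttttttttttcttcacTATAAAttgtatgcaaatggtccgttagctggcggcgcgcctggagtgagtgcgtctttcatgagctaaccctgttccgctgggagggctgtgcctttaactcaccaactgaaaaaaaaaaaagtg
Tnxb, chr17:34670285-34670534, plus strand: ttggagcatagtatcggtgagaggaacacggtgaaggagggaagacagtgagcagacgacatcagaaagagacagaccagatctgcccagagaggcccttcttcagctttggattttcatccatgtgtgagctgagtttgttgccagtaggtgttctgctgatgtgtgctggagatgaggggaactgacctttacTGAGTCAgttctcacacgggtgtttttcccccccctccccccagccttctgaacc
Aspn, chr13:49544193-49544442, plus strand: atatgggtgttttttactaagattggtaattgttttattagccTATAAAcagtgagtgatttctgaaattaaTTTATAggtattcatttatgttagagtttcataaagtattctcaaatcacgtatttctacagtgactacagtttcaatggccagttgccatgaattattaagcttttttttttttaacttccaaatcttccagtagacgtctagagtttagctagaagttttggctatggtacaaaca
Ogn, chr13:49607765-49608014, plus strand: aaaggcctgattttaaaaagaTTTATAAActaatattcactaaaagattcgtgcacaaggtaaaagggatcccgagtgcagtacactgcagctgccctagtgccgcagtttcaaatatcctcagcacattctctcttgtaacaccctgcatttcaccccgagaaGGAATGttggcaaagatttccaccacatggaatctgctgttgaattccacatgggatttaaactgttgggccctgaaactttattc

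The table holds 2 windows each for Postn and Tnc, of which 1 is shown. The bases after each listed start were searched for near the beginning of GENCODE transcripts of the same gene. They were found for the Tnc, Tnxb and Aspn windows shown, but for neither Postn window and not for Ogn. Positions in Postn and Ogn thus rest on the listed RefSeq start alone. In the Postn window shown the TATAAA match starts 26 bases before the start, and the other window holds none of the 4 motifs. In the Tnc window shown the match starts 126 bases before the start, and in the overlapping other window 205 bases before its own start. Only exact TATAAA was searched, and nearer its start that other window also holds tatataag, which the search does not match. The Tnxb window holds TGAGTCA, a form of TGANTCA, 55 bases before the start and no TATAAA. Aspn holds TATAAA 207 bases before the start and, on the other strand, 178 bases before it. Ogn holds it at 227 bases and, overlapping on the other strand, at 229 bases, and GGAATG at 86 bases before the start. Of the 39 windows of the matched genes, 20.5% held TATAAA, 15.4% GGAATG, 7.69% TGANTCA and 2.56% a CArG box (in Lama2). Over all 32851 windows of the table the shares were 12.4%, 12.6%, 6.75% and 1.47%. These are matches of letters and say nothing of binding.

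Aspn and Ogn lie next to Ecm2 and Omd on chromosome 13, in the order Ecm2, Aspn, Omd, Ogn, and these neighbours were looked up after the values of the members were seen. Ecm2 differed by -0.11 ± 0.10 (adjusted p = 0.412), Omd fell by 1.13 on the log2 scale (adjusted p = 0.003) at a SHAM level of 1.29 ± 0.395 CPM, and Ogn differed by 0.09. Aspn was thus the gene of the 4 that rose. On chromosome 10 Lum rose by 0.92 next to Dcn at 0.26, and Epyc, epiphycan, fell by 1.93 ± 0.68 SE (adjusted p = 0.0255) at 1.59 ± 1.30 CPM in SHAM. On chromosome 1 Fmod, fibromodulin, fell by 1.35 on the log2 scale next to Prelp (adjusted p = 0.000803), from 20.6 ± 3.76 to 8.10 ± 3.76 CPM.

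In hearts with decursin, none of the 50 genes was called against IR. With edgeR, 0 of 50 were called in either direction, as were 0% of all 15088 genes tested, and DESeq2 also called 0 of the 50, with 334 higher and 83 lower over all genes. At an unadjusted p under 0.05, 3 of the 50 differed (Prelp, Ccn3 and Emilin1), beside 18.0% of all genes. Leaving out IR+Decursin 1 gave 696 higher and 280 lower genes with edgeR, 0 of them among the 50. Without the 3 libraries with high Xist counts, without IR+Decursin 5 or without IR+Decursin 6, 0 of the 50 were called. The median difference of the 50 was -0.13 on the log2 scale, beside -0.02 for all genes tested. The 50 genes took 0.871 ± 0.318% of counts (SD, n = 6), from 0.429% in IR+Decursin 6 to 1.32% in IR+Decursin 1. The lowest value lay inside the SHAM range of 0.375 to 0.445%. In IR+Decursin 6, however, Gm26917 took 7.54% of all counts, beside at most 0.105% in SHAM. This lowers the share of every other gene there, so the place of that library against the SHAM range is not secure.

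Prelp had the smallest p of the 50. It had 57.2, 67.8 and 71.3 CPM in IR and 76.8, 81.7 and 109 CPM in IR+Decursin, a difference of 0.37 ± 0.12 (adjusted p = 0.144). Every IR+Decursin library lay above every IR library, as in 0.272% of all genes, and within the SHAM range of 66.6 to 119 CPM. Against SHAM the IR+Decursin hearts differed by -0.14 ± 0.12 (adjusted p = 0.41). Ccn3 was higher by 0.80 ± 0.32 (adjusted p = 0.205), with 3.14, 3.83 and 7.77 CPM in IR and 4.79, 5.94 and 13.8 CPM in IR+Decursin, and its ranges overlapped. The 8 valve and cartilage-like markers summed to a mean of 63.9 CPM in SHAM, 28.8 CPM in IR and 46.7 CPM in IR+Decursin. SHAM 2 (80.2 CPM) and IR+Decursin 4 (70.6 CPM) had the highest sums of their groups, and also the highest Prelp and Ccn3 levels. In IR the highest sum was in IR 2 (38.0 CPM), which had the highest Prelp but a Ccn3 level of 4.10 CPM. Ccn3 was highest in IR 3, where the sum was 26.6 CPM. IR+Decursin 3 had a sum of 56.3 CPM, with Ccn3 at 10.4 CPM but Prelp at 77.5 CPM, under the median of its group. In IR+Decursin 2 and IR+Decursin 5 the sums (27.4 and 28.8 CPM) lay inside the IR range. The part of these markers in the differences of Prelp and Ccn3 was not tested.

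Tnxb (0.22 ± 0.15, adjusted p = 0.431), Lama2 (0.15 ± 0.11, adjusted p = 0.46) and Smoc2 (0.18 ± 0.16, adjusted p = 0.569) had the next smallest p-values among genes with higher values in IR+Decursin. Tnxb had 84.7, 114 and 152 CPM in IR and 93.6, 141 and 177 CPM in IR+Decursin. Lama2 had 83.3, 104 and 117 CPM in IR and 93.9, 109 and 145 CPM in IR+Decursin, the highest being IR+Decursin 6. Smoc2 had 56.2, 71.6 and 87.9 CPM in IR and 53.8, 80.3 and 110 CPM in IR+Decursin. The groups overlapped in these 3 genes, and the 95% intervals of the differences included 0.

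Among genes with lower values in IR+Decursin, the smallest p-values belonged to Emilin1 (-0.45 ± 0.21, adjusted p = 0.266), Efemp2 (-0.39 ± 0.21, adjusted p = 0.32), Aebp1 (-0.30 ± 0.19, adjusted p = 0.412), Fbln2 (-0.24 ± 0.18, adjusted p = 0.484) and Fbn1 (-0.43 ± 0.33, adjusted p = 0.498). Emilin1 had 31.4, 76.5 and 114 CPM in IR+Decursin, with 3 of 6 libraries under every IR library. Efemp2 had 10.7, 25.1 and 34.8 CPM, with 4 of 6 under every IR library. Aebp1 had 33.9, 80.1 and 96.4 CPM, Fbln2 152, 227 and 335 CPM, and Fbn1 73.6, 232 and 427 CPM. In all 5 genes IR+Decursin 6 was the lowest library of its group and IR+Decursin 1 the highest.

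**Figure D5:**
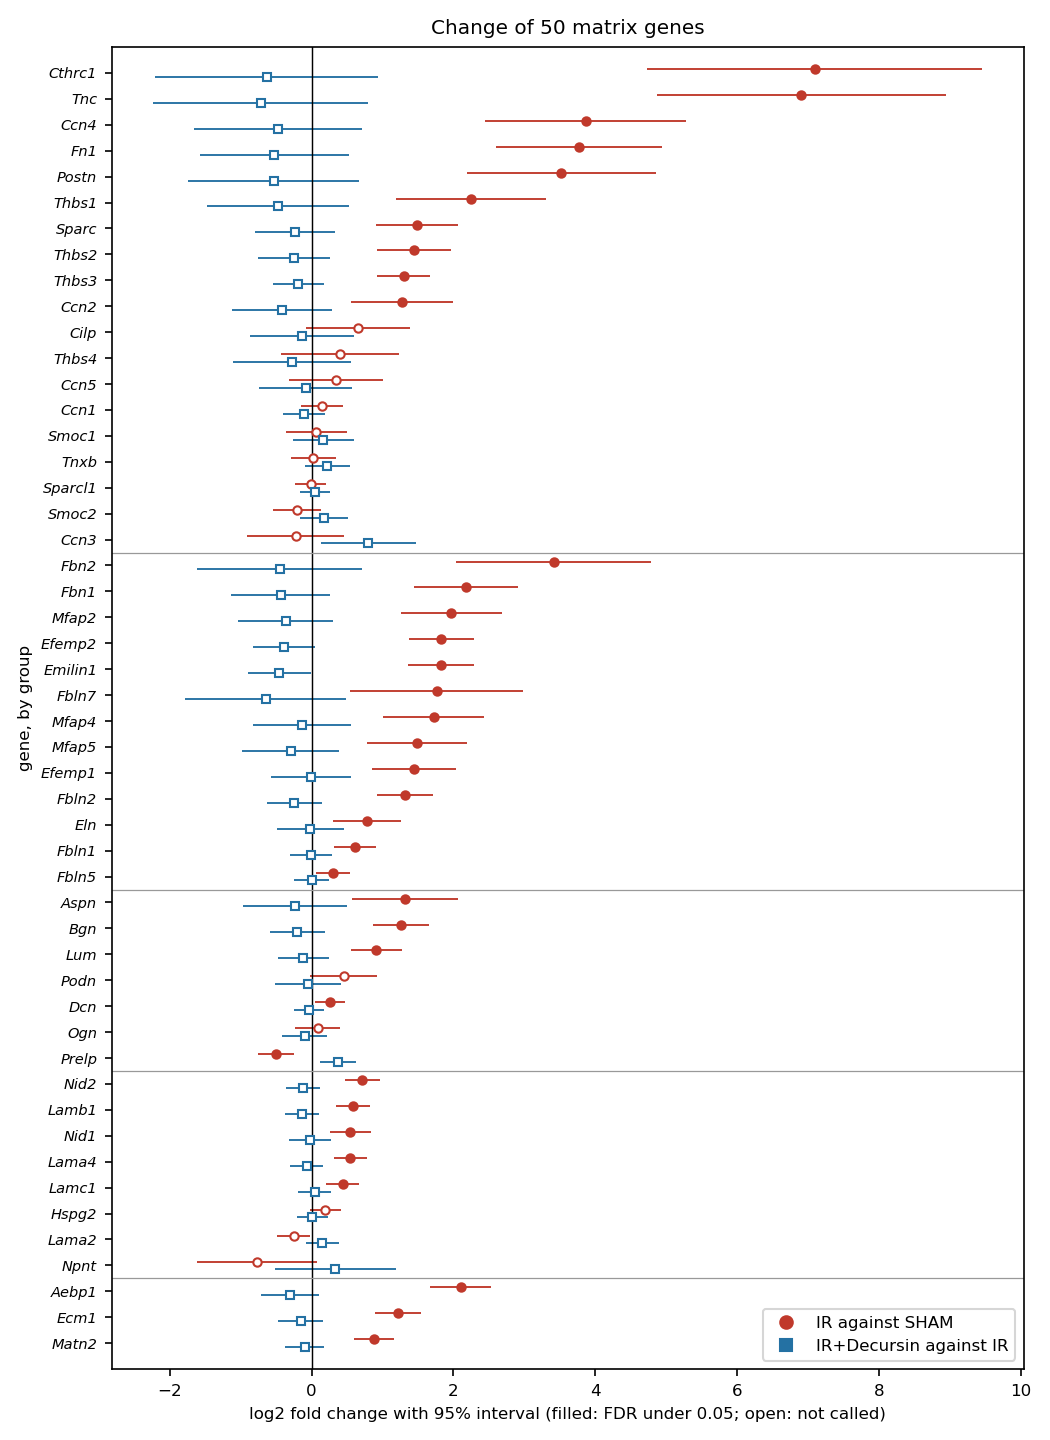
Log2 fold change with its 95% interval for the 50 genes, IR against SHAM (red circles) and IR+Decursin against IR (blue squares), filled where the adjusted p was under 0.05. The red intervals of the elastic fibre block all lie above 0, and no blue symbol is filled.

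The genes with large changes in IR had wide intervals between IR+Decursin and IR. For Tnc the difference was -0.72 with a 95% interval from -2.23 to 0.80, for Cthrc1 -0.63 from -2.21 to 0.94, for Fn1 -0.52 from -1.57 to 0.53 and for Postn -0.53 from -1.74 to 0.67. Each of these intervals includes 0. The intervals were narrower for Hspg2 (-0.21 to 0.23) and Sparcl1 (-0.16 to 0.27), which were not called in IR against SHAM, and for Lamc1 (-0.19 to 0.28), which was.

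The 6 IR+Decursin libraries did not form one set. For the 29 genes without overlap between SHAM and IR, the value of IR+Decursin 3 was within the IR range in 29, that of IR+Decursin 1 within it in 27 and above it in 2, and that of IR+Decursin 4 within it in 26. IR+Decursin 2 was within it in 19 and between the SHAM and IR ranges in 9. IR+Decursin 5 lay between the ranges in 20, within the IR range in 6 and at or below the highest SHAM value in 3. IR+Decursin 6 was at or below the highest SHAM value in 14, between the ranges in 13 and within the IR range in 2 (Ccn2 and Lamc1). A position also depends on the gap between the ranges, which was narrow in both genes. It ran from 83.6 to 84.5 CPM for Ccn2 and from 211.8 to 212.1 CPM for Lamc1. IR+Decursin 1 was the highest of its group for 29 of the 50 genes, and IR+Decursin 6 was the lowest for 29. These positions and ranks were not counted over all genes, so they cannot be called particular to the 50. The genes without overlap were chosen by their SHAM and IR values, which by itself can place other libraries below the IR range.

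The genes were not alike in this. In IR+Decursin 6 Postn had 96.1 CPM, Sparc 417 CPM, Cthrc1 0.389 CPM and Ccn4 1.28 CPM, all inside the SHAM ranges. Efemp1 in the same library had 21.1 CPM, the highest of its group and inside the IR range, beside at most 8.80 CPM in SHAM. Of the 6 IR+Decursin 5 values within the IR range, 4 were basement membrane genes (Lamb1, Lamc1, Nid1 and Nid2), and the others were Fbln2 and Mfap5. The gap between the SHAM and IR ranges was 211.8 to 212.1 CPM in Lamc1 and 30.2 to 31.4 CPM in Nid2, but 129 to 189 CPM in Fbln2. Positions of different genes are therefore not strictly comparable.

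Markers of cell types differed between these libraries too. The 6 activated fibroblast markers outside the 50 summed to 559 CPM in IR+Decursin 5 and 297 CPM in IR+Decursin 6, and to 1738 to 3352 CPM in the other 4 libraries of the group. Cardiomyocyte markers summed to 65950 CPM in IR+Decursin 6, inside the SHAM range, and to 38210 CPM in IR+Decursin 1. Macrophage markers summed to 387 CPM in IR+Decursin 6 and 1068 CPM in IR+Decursin 1. IR+Decursin 6 was also the library with 7.54% of counts in Gm26917. The part of these in the differences was not tested.

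Against SHAM, 31 of the 50 genes rose in IR+Decursin and 0 fell, beside 17.5% and 11.8% of all genes tested, and the median was 0.79. At an unadjusted p under 0.05 with edgeR, 34 differed (40.3% of all genes), 0 of them lower, and DESeq2 also called 0 lower. For 15 of the 50 every IR+Decursin library lay above every SHAM library, as did 4.44% of all genes, and for 0 of the 50 below, as did 2.90% of all genes. The 15 were 3 matricellular genes, 3 elastic fibre genes, Bgn, 5 basement membrane genes and the 3 adaptors. Without the libraries with high Xist counts, without IR+Decursin 5 or without IR+Decursin 6, 32 rose. This comparison shares its SHAM libraries with that of IR.

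Set beside the IR values, Tnc was 6.18 ± 0.93 higher than SHAM in IR+Decursin (6.90 in IR), Fn1 3.25 ± 0.54 (3.77), Postn 2.98 ± 0.61 (3.52), Aebp1 1.80 ± 0.20 (2.10), Bgn 1.06 ± 0.18 (1.26) and Nid2 0.60 ± 0.11 (0.72). Dcn (0.22 ± 0.10, adjusted p = 0.0982) and Fbln7 (1.12 ± 0.58, adjusted p = 0.152) were not called, though Dcn was under 5 of 24 alternatives, among them total-count scaling (0.45, adjusted p = 0.00401). Ccn2 was 0.87 ± 0.33 higher and not called (adjusted p = 0.061), but was called under 8 of 24 alternatives, among them the fit of the 2 groups only (adjusted p = 0.0368), voom quality weights (adjusted p = 0.0162) and leaving out IR+Decursin 2 or IR+Decursin 5 (adjusted p = 0.0457 and 0.0381). Fbln5 was not called (0.30 ± 0.11, adjusted p = 0.051) but was under 11 of 24 alternatives, among them DESeq2 (adjusted p = 0.0492), the fit of the 2 groups only (adjusted p = 0.0253), voom quality weights (adjusted p = 0.019), and leaving out the 3 Xist libraries (adjusted p = 0.0366), SHAM 2 (adjusted p = 0.0251) or IR+Decursin 6 (adjusted p = 0.0193). The call of Aspn (1.08 ± 0.35, adjusted p = 0.0283) was lost without SHAM 2, 4 or 5 or without IR+Decursin 1, 3 or 4 (adjusted p = 0.0504 to 0.0875).

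Of the 12 pair ratios, 0 were called between IR+Decursin and IR by the exact permutation test, and 0 had an unadjusted p under 0.05. Between IR+Decursin and SHAM 3 were called, Bgn/Dcn (0.78 higher, adjusted p = 0.0111), Tnc/Tnxb (5.08 higher, adjusted p = 0.0173) and Aspn/Ogn (0.94 higher, adjusted p = 0.0173), all by the exact permutation test. The count was 5 without IR+Decursin 5 and 6 without IR+Decursin 6. Without IR+Decursin 6 the Tnc/Tnxb difference was 6.01.

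Genes around these 50 in the same pathways were followed in lists of other genes. Of 28 integrins and other matrix receptors, 15 rose and 3 fell in IR against SHAM (median 0.30), beside the 25.3% and 21.7% of all genes. They included Itgb3, an integrin chain that binds fibronectin and other RGD ligands (2.59 ± 0.34, adjusted p = 1.57e-05), Itgb5 (0.57 ± 0.08, adjusted p = 1.75e-05) and the heparan sulfate proteoglycans Sdc1 (1.87 ± 0.24, adjusted p = 1.46e-05) and Sdc3 (0.94 ± 0.12, adjusted p = 8.54e-06), each with 6 of 6 IR libraries above SHAM. Of 12 other laminin and basement membrane genes tested, 0 rose and 3 fell (median -0.05), beside the same 25.3% and 21.7% of all genes. At an unadjusted p under 0.05 by edgeR stood 5 of the 12, beside 53.7% of all genes. The 3 that fell were Frem2 (-1.45 ± 0.25), Papln (-1.09 ± 0.20) and Lamb3, a laminin chain of epithelia (-0.73 ± 0.17). DESeq2 also gave 0 higher and 3 lower in this list.

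Of 19 other proteoglycan and hyaluronan genes tested, 7 rose and 7 fell (median -0.15), beside 25.3% and 21.7% of all genes. The hyaluronan synthase gene Has2 (2.60 ± 0.47, adjusted p = 0.000157), the large proteoglycan gene Vcan (1.63 ± 0.31) and the glypican gene Gpc6 (0.83 ± 0.15) rose, and Chad, chondroadherin, fell (-2.85 ± 0.54). Of 19 other matricellular and adhesive genes tested, 9 rose and 3 fell (median 0.26), beside the same shares of all genes. The osteopontin gene Spp1 went from 4.25 ± 2.13 to 235 ± 189 CPM (5.79 ± 0.94, adjusted p = 0.000139), and Tgfbi (1.84 ± 0.23), Fstl1 (2.08 ± 0.34) and Svep1 (0.69 ± 0.12) rose as well.

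Of 17 other elastic fibre and latent TGF-β genes, 8 rose and 3 fell (median 0.04), beside 25.3% and 21.7% of all genes. The rises included the crosslinking enzyme genes Lox (from 4.41 ± 1.70 to 156 ± 52.5 CPM, 5.14 ± 0.77, adjusted p = 7.00e-05), Loxl1 (1.65 ± 0.23) and Loxl2 (2.37 ± 0.42), and the latent TGF-β binding protein gene Ltbp3 (0.77 ± 0.09). Of 23 growth factor signalling genes tested, 13 rose and 1 fell (median 0.35), beside the same shares of all genes. Those that rose included the receptor genes Tgfbr2 (0.85 ± 0.09) and Pdgfra (0.92 ± 0.11), the ligand gene Tgfb1 (0.74 ± 0.09) and Mrtfa, a coactivator of serum response factor (0.80 ± 0.12). Between IR+Decursin and IR, 0 genes of these 6 lists were called by edgeR, and DESeq2 called 1, among the other proteoglycans. At an unadjusted p under 0.05 stood 8 of the receptors, 4 of the other laminins, 6 of the other proteoglycans, and 3 each of the other matricellular, elastic fibre and growth factor genes, beside 18.0% of all genes.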

How the data were processed

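Total RNA libraries of 18 hearts were read from 2 tables. The authors deposited a table of raw counts by gene symbol and a table of FPKM. Per the submitters' processing notes, fastp, HISAT2, HTSeq and the build GRCm39 were used. No label or header states versions, annotation or strand setting, so reads shared by overlapping, antisense or near-identical genes are uncertain. The deposited FPKM equal the counts divided by gene length and library total (largest relative deviation 1.58e-09 over 347198 values above 0), so they carry no factor for library make-up.

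Counts passing filterByExpr by group were scaled with TMM factors and tested in edgeR 4.0.16 (R 4.3.3) in a single quasi-likelihood fit of all libraries with a mean per group and 15 residual degrees of freedom, two-sided. The code was tested on simulated data. Pair ratios took log2 of count + 0.5 and exact permutation tests. Alternatives were DESeq2 1.42.0, RLE factors, total-count scaling, other filters, the compared groups alone, limma 3.58.1 on voom weights or on log2(FPKM), a replicate block, and leaving out each library or the 3 with over 1000 Xist counts. Each group's samples are separate animals, per the labels. Numbers shared by animals of different groups did not pair them.

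The members, lists and pairs were chosen with earlier results of these data known. All members could be named. Full values were given for the 3 with the smallest adjusted p and at least 2 FPKM in each role group, for members that fell, for the 5 higher and 5 lower with the smallest p in IR+Decursin against IR, and for others that the comparisons turned on, chosen after values were seen. From other lists at most 4 genes were named.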

Additional observations from a re-analysis of the deposited data

Results flagged for a closer look

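In 9 of 150 sets of 6 libraries (6.0%), 1 library stood apart from its group by Dixon's criterion. Chance flags about 1 in 20 groups. In every case it was the highest library. IR 3, a library with high Xist counts, stood apart for Fbn2 (9.42 CPM, next 6.42), Mfap2 (11.6 CPM, next 6.40), Nid2 (49.7 CPM, next 37.7) and Ccn3 (7.77 CPM, next 4.71). In SHAM, Ccn3 had 10.3 CPM in SHAM 2 (next 4.80) and Fbln1 had 114 CPM in SHAM 5 (next 80.7). In IR+Decursin, Ccn1 had 55.2 CPM in IR+Decursin 1 (next 45.3), Fbln7 had 2.31 CPM in IR+Decursin 2 (next 0.791), and Prelp had 109 CPM in IR+Decursin 4 (next 86.9).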

How the results depend on the processing

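Across 24 alternatives per comparison, the number of the 50 genes higher in IR than in SHAM ran from 33 to 42, and from 33 to 36 when a library was left out. Over all 15088 genes the number higher was 3810 in the reported fit, 7012 with total-count scaling and 6901 on log2(FPKM + 1). A larger count of members under these settings therefore goes with a shift of all genes. The number lower was 1, 0 with total-count scaling and with log2(FPKM + 1), log2(FPKM + 0.1) and log2(FPKM + 1) at a mean of at least 1 FPKM, 2 with only the 2 groups fitted and with voom quality weights, and 1 to 2 when a library was left out. The gene added was Lama2, Npnt in the case of SHAM 1. Between IR+Decursin and IR 0 of the 50 were called under every alternative run. In IR+Decursin against SHAM 30 to 38 were higher, and Thbs1 and Aspn were lost under some settings. Over all genes 2647 were higher in this comparison in the reported fit and 4781 with total-count scaling. For pairs in this comparison the count was 3 to 6 when a library was left out, 5 without IR+Decursin 5 and 6 without IR+Decursin 6.

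With the replicate block, the number of genes lower in IR was 2, and the number of unequal pairs was 0 in IR against SHAM and 0 in IR+Decursin against SHAM by sign flips, whose smallest p is 0.03125 before adjustment. Same-numbered libraries deviated together with correlations of 0.02 to 0.109 for IR and SHAM, -0.385 to 0.311 for IR+Decursin and IR and -0.132 to 0.026 for IR+Decursin and SHAM, so the numbers were not taken as pairs. Under the block Fbln5 (0.30, adjusted p = 0.0622) and Dcn (0.25, adjusted p = 0.0635) in IR against SHAM and Thbs1 in IR+Decursin against SHAM (1.63, adjusted p = 0.0675) lost their edgeR call.

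Signs changed in genes without a call in the reported fit; the 4 values above 0 given first for Sparcl1 did pass the test (adjusted p = 0.0141 to 0.0156). With total-count scaling and with log2(FPKM + 1), log2(FPKM + 0.1) and log2(FPKM + 1) at a mean of at least 1 FPKM, IR against SHAM was 0.29, 0.28, 0.28 and 0.28 for Sparcl1, 0.10, 0.091, 0.094 and 0.091 for Smoc2, 0.096, 0.076, 0.12 and 0.076 for Ccn3, and 0.053, 0.047, 0.051 and 0.047 for Lama2, and IR+Decursin against SHAM was 0.087, 0.091, 0.096 and 0.091 for Prelp. When a library was left out, IR against SHAM ran from -0.062 to 0.10 for Tnxb, from -0.084 to 0.051 for Sparcl1, from -0.042 to 0.18 for Smoc1, from -0.030 to 0.18 for Ogn and from -0.46 to 0.090 for Ccn3. Without the 3 Xist libraries Ccn1 was -0.0079 and Ogn -0.0048. The cause was not tested. Genes under 1 CPM, such as Fbln7 and Fbn2 in SHAM, rest on few counts.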
